A study of Caenorhabditis elegans with 2 samples.

Results

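Occupancy of LIN-29 was examined at 8 genes that run or report the larval moulting cycle of Caenorhabditis elegans: nhr-23, nhr-25, nhr-85, blmp-1, grh-1, myrf-1, bed-3 and mlt-10. They were taken by name from a fixed list, out of 19973 protein-coding genes on the 6 nuclear chromosomes. In ce11 coordinates, nhr-23, nhr-85, blmp-1 and grh-1 lie on chromosome I, myrf-1 and mlt-10 on II, bed-3 on IV and nhr-25 on X. The data come from chromatin immunoprecipitation with sequencing (ChIP-seq) with an anti-GFP antibody. All material was whole L4 larvae of strain RW12227, which carries a CRISPR insertion giving its own lin-29 gene a TY1, EGFP and 3xFLAG tag, aged 49 hours, from a population synchronised by starvation as newly hatched L1 larvae after bleaching of adults. There was 1 group of 2 samples, numbered as biological replicates 1 and 2. No untagged or other condition and no control immunoprecipitation was analysed here, and the role of a further input named for the lists is not stated, so LIN-29 occupancy and signal that any immunoprecipitation would give at a gene cannot be told apart. The lists carry no read counts, and the sequencing depth is unknown. Whole animals were used, so a signal is summed over all tissues, and a single collection time gives no course over the moulting cycle.

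Each larval stage of the worm ends in a moult, and many epidermal genes rise and fall once per stage in step with it. The rhythm is kept by transcription factors whose own transcripts also cycle. NHR-23 belongs to the ROR family of nuclear receptors, NHR-25 is the worm relative of Drosophila Ftz-F1, and NHR-85 is related to the Rev-Erb and Drosophila E75 receptors. BLMP-1 is a zinc finger protein of the BLIMP1 family, GRH-1 is the worm Grainyhead factor of epidermal barriers, MYRF-1 is released from a membrane to act as a transcription factor, and BED-3 is a BED-type zinc finger protein needed for moulting. MLT-10 is not a regulator but a moulting protein of the epidermis, whose promoter is widely used as a reporter of the cycle. LIN-29, a zinc finger factor at the end of the developmental timing pathway, directs the epidermis to stop moulting after the L4 stage.

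Summit sequences of 3 members show the range of sites met at these genes: the strongest peak of the set (myrf-1), a promoter candidate whose standing changed between lists (nhr-25), and the strongest candidate of the cycle's reporter gene, which lay in an intron (mlt-10). Each is the RefSeq WBcel235 sequence within 50 bp of the summit, read 5′ to 3′ on the strand of the gene. Capitals mark the 6-letter words that were searched for on both strands, as given further on.
myrf-1, chrII:10502830-10502930, minus strand: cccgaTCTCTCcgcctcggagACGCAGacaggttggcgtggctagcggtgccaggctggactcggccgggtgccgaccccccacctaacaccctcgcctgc
nhr-25, chrX:13008193-13008293, plus strand: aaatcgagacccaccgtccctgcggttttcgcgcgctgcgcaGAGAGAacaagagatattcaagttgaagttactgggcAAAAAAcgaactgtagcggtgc
mlt-10, chrII:548886-548986, plus strand: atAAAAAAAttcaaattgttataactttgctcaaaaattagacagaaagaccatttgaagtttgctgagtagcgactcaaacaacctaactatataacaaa
The GC content of these windows was 71.3% at myrf-1, 51.5% at nhr-25 and 27.7% at mlt-10. The median over all 906 peaks of the pooled thresholded list was 49.5%, and 0.442% of those peaks had a GC content as high as that of myrf-1.

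Of the 8 genes, 3 had a peak: myrf-1, nhr-85 and nhr-23, with 1 each. A gene counts as having a peak when a summit of the pooled thresholded list falls in its window, which reaches from 2000 bp before the 5′ end through to the 3′ end. By the same rule 921 of the 19973 protein-coding genes had one (4.61%). The members' windows were long, from 7328 to 11955 bp against a median of 4027 bp for all genes. Among the 2916 genes with windows of at least 7328 bp, 272 had a peak (9.33%). The median window of those genes was 10223 bp, longer than the members' median of 7513.5 bp. The pooled list keeps candidates with an irreproducible discovery rate (IDR) of 0.01 or less. The IDR grades how well the rank of a candidate repeats between 2 inputs, so a low value means good repetition. The inputs compared are not named in the lists. A replicate's own list was made from its own alignments, so its IDR does not compare the 2 biological replicates. Signal is the deposited strength of a candidate, whose scale is not stated and differs between lists. Replicates are therefore compared by rank. Where their signals are given without ranks, the values are on different scales and are no measure of a replicate difference.

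The receptor genes were nhr-23 (WBGene00003622, chrI:7214745-7221299, plus strand), nhr-25 (WBGene00003623, chrX:13008493-13013964, plus strand) and nhr-85 (WBGene00003675, chrI:13055201-13062122, minus strand). Those of the other regulators were blmp-1 (WBGene00003847, chrI:10409302-10414773, plus strand), grh-1 (WBGene00001707, chrI:1258201-1268155, minus strand), myrf-1 (WBGene00004134, chrII:10496987-10502541, minus strand) and bed-3 (WBGene00009133, chrIV:9916524-9921967, plus strand). The output gene mlt-10 (WBGene00015646) spans chrII:546705-552032 on the plus strand.

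The windows of the 8 genes held 93 candidates of the pooled ranked list. Introns held 41 of them, coding exons 25, upstream sequence 19, 3′ UTRs 7 and 5′ UTRs 1. Candidates were dense at every member, with 1.06 per kb at myrf-1 as the lowest and 1.68 per kb at nhr-85 as the highest. Overlapping intervals, such as some at nhr-85, were counted separately, here and for all genes, so the density is not one of separate sites. The median gene had 0.648 per kb, and the median among genes with windows of at least 7328 bp was 0.717. The density at nhr-85 was reached by 3.01% of all genes and that at myrf-1 by 20.8%. Myrf-1 thus had the fewest candidates for its window and the strongest of all.

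**Figure D1:**
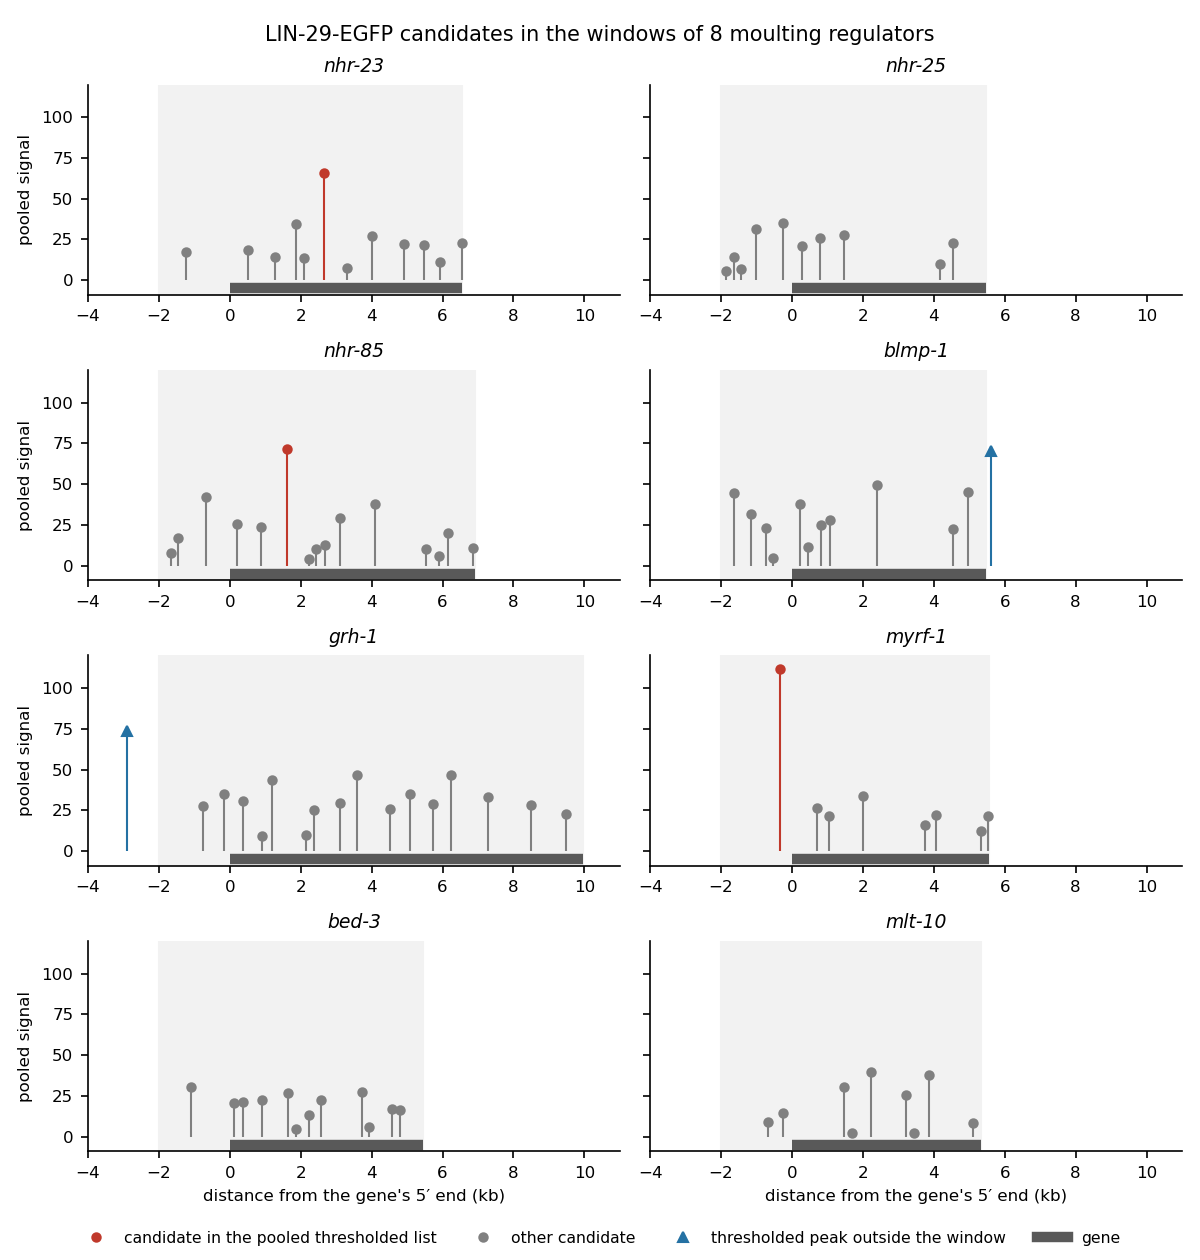
Pooled signal of every candidate (vertical axis, deposited units) against its distance from the 5′ end of the gene in kb (horizontal axis, read in the direction of transcription), 1 panel per gene, with the searched window shaded. Red points are in the pooled thresholded list and occur at nhr-23, nhr-85 and myrf-1; blue triangles are thresholded peaks just outside the windows of blmp-1 and grh-1.

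Myrf-1, whose product is needed for moulting, had the strongest peak of the set and the one that repeated best. The peak lay at chrII:10502735-10503024, with its summit 339 bp upstream of the gene's 5′ end. Signal was 112 in the pooled list, 54.6 in replicate 1 and 51.99 in replicate 2. These values placed the candidate among the top 0.353% of the pooled ranked list, the top 0.719% of replicate 1's and the top 0.490% of replicate 2's. The IDR was 0.000257 in the pooled list and 0.00078 in replicate 1, whose own thresholded list holds the peak. It was 0.0107 in replicate 2, just above the limit of 0.01, so replicate 2's own list does not hold it. The second series-wide thresholded list, which its name calls conservative, holds it too. Within the pooled thresholded list it ranked 221 of 906 by signal. The summit lies inside F59B10.7, an annotated non-coding RNA gene on the other strand, and in the window of no other protein-coding gene. The next candidate of myrf-1, in a coding exon, had a pooled signal of only 33.98, and the one after it, intronic, 26.5.

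Nhr-85, the Rev-Erb-related receptor, had an intronic peak, 539th of the 906 by signal, that neither replicate's own list holds. It lay at chrI:13060374-13060663, 1603 bp downstream of the 5′ end in intron 1 of the longest transcript. Of the 2 annotated transcripts, the shorter starts 894 bp further downstream, so the summit is also upstream of that start. Signal was 71.6 pooled, 36.95 in replicate 1 and 37.7 in replicate 2, in the top 1.90% and the top 1.01% of candidates of those replicates. The IDR was 0.0018 pooled and 0.0017 in the ranked list behind the conservative list, which holds the peak. Within the replicates it was 0.052 and 0.0109. The third candidate of nhr-85 by signal, in a coding exon 4085 bp from the 5′ end, had an IDR of 0.028 in the pooled list and 0.877 in the ranked list behind the conservative list. Its signals were 28.5 in replicate 1 and 5.88 in replicate 2, so it was high in 1 replicate and near the bottom of the list in the other. The candidate 677 bp upstream of the gene had a pooled signal of 41.8 with an IDR of 0.37.

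Nhr-23, the ROR-family receptor needed for each moult, had the weakest peak of the 3, 643rd of the 906 by signal. It lay at chrI:7217249-7217538, 2649 bp downstream of the 5′ end in intron 1 of the longest transcript, and 610 bp downstream of the nearest of the 6 annotated transcripts' starts. Signal was 65.6 pooled, 39.7 in replicate 1 and 23.4 in replicate 2. The candidate stood in the top 1.55% of replicate 1 and in the top 6.55% of replicate 2, so replicate 1 was the higher. The IDR was 0.00515 in the pooled list, 0.0273 in replicate 1 and 0.40 in replicate 2. In the ranked list behind the conservative list it was 0.0122, so the peak is not in that list. The next candidates of nhr-23, also intronic, had pooled signals of 34.4 and 27.03 with an IDR of 0.314 and 0.876. The conservative list holds peaks at 2 of the 8 genes, myrf-1 and nhr-85, and at 4.40% of all protein-coding genes.

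Nhr-25, the Ftz-F1-related receptor, had no peak in any of the 4 thresholded lists, but its promoter candidate stood very differently in each ranked list. That candidate lay at chrX:13008098-13008387, with a summit 250 bp upstream of the 5′ end and inside 2 annotated non-coding RNA genes, F11C1.12 and F11C1.13. Its pooled signal was 34.9. The IDR was 0.705 in the pooled list and 0.0109 in the ranked list behind the conservative list. Replicate 1 had a candidate 98 bp away with a signal of 25.7 and an IDR of 0.306. Replicate 2 had one 104 bp away with a signal of 38.98 and an IDR of 0.0345. The replicates' summits lay on opposite sides of the pooled one, at 152 bp upstream of the gene in replicate 1 and 354 bp upstream in replicate 2. The next candidates of nhr-25, 1015 bp upstream and in intron 4, had pooled signals of 31.4 and 27.8 with an IDR of 0.745 and 0.478. By its strongest candidate nhr-25 came 7th of the 8 genes in the pooled list, 6th in replicate 1 and 2nd in replicate 2.

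Blmp-1 and grh-1 had no peak in their windows, and each had one just outside. The strongest blmp-1 candidate inside the window was in a coding exon 2394 bp from the 5′ end, with a pooled signal of 49.6 and an IDR of 0.0361. Its replicate signals were 24.3 and 28.6, with an IDR of 0.642 in replicate 1 and 0.658 in replicate 2. The next candidates were close in strength, with a pooled signal of 45.4 in the 3′ UTR and 44.4 at 1631 bp upstream, and an IDR of 0.249 and 0.102. The peak outside the window lay at chrI:10414779-10415068, 151 bp past the 3′ end of blmp-1 and in the window of no protein-coding gene. It had a pooled signal of 70.1 with an IDR of 0.00325, signals of 27.8 in replicate 1 and 37.98 in replicate 2, and is in the conservative list but in neither replicate's own.

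The window of grh-1 was the longest and held 16 candidates, all of similar and modest strength at the top. Its 3 strongest were intronic, with pooled signals of 46.8, 46.5 and 43.6 and an IDR of 0.184, 0.0358 and 0.0584. The strongest, 6243 bp from the 5′ end, had a signal of 19.4 in replicate 1 (top 22.2%) and 33.1 in replicate 2 (top 1.52%). The candidate ranked 3rd was the other way round, with 32.1 in replicate 1 (top 3.00%) and 14.8 in replicate 2 (top 37.2%). Part of the sequence at those ranked 2nd and 3rd is repeated in the genome, with 74.1% and 64.3% of their 36-base words single-copy. That share was 100% at the strongest grh-1 candidate and at the 3 strongest of each of the other 7 genes. The peak outside lay at chrI:1270918-1271207, 2908 bp upstream of grh-1, and 453 bp upstream of Y48G8AR.8, whose window it falls in. Its signal was 73.7 pooled, 46.6 in replicate 1, whose own list holds it, and 24.4 in replicate 2, where the IDR was 0.613. With the window widened to 5000 bp on either side of the gene, a choice made after these peaks had been seen, 5 of the 8 members had a peak, against 10.6% of protein-coding genes.

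Bed-3 had the weakest strongest candidate of the 8 in the pooled list, and mlt-10 came 6th, ahead of nhr-25. The strongest of bed-3 lay 1099 bp upstream of the gene with a pooled signal of 30.1 and an IDR of 0.768. Replicate 2 had a signal of 21.2 there, and replicate 1 had no candidate within 100 bp. The next ones of bed-3 were intronic, with pooled signals of 27.6 and 26.8, and replicate 1 had no candidate within 100 bp of either. At mlt-10 the strongest candidate was in intron 3, 2231 bp from the 5′ end, with a signal of 39.9 pooled, 23.99 in replicate 1 and 13.8 in replicate 2. Its pooled IDR was 0.169. The next candidates of mlt-10 lay in coding exons, with pooled signals of 37.6 and 30.7 and an IDR of 0.307 and 0.761. The 2 candidates upstream of mlt-10, on the promoter side, had pooled signals of 14.3 and 8.80, below the 4 strongest inside the gene, which ran from 25.2 upward. Both upstream summits lie inside another protein-coding gene, T27A1.3. The coding-exon candidate of 37.6 also falls in the window of lips-7. As strong a candidate as that of bed-3 was found at 40.1% of all protein-coding genes, and as strong as that of mlt-10 at 17.0%. Among genes with windows of at least 7328 bp these shares were 68.0% and 33.2%. Neither gene had a thresholded peak within 5000 bp.

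**Figure D2:**
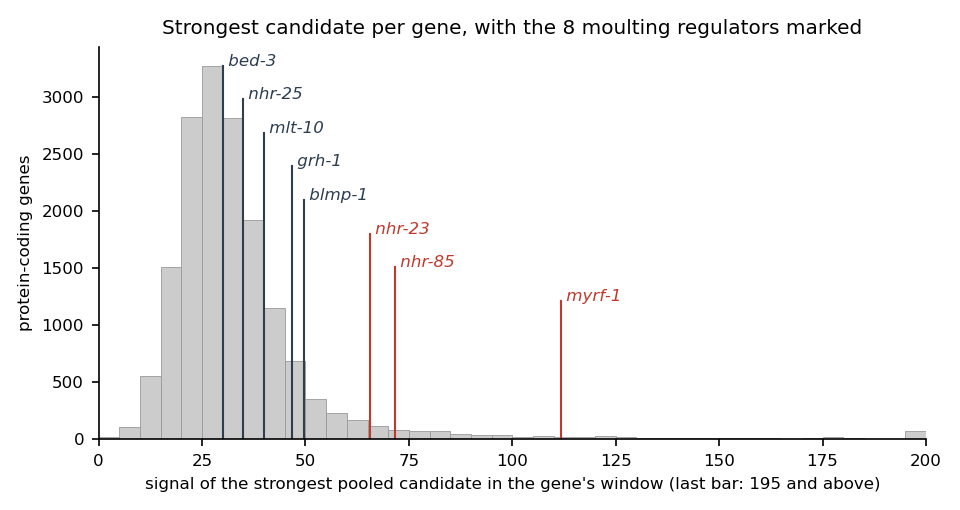
Number of protein-coding genes (vertical axis) by the pooled signal of the strongest candidate in their window (horizontal axis, deposited units, bins of 5, genes with no candidate left out). Vertical lines mark the 8 genes: myrf-1 at 112, nhr-85 at 71.6 and nhr-23 at 65.6 are red because their strongest candidate is in the pooled thresholded list, and the other lines lie between 30.1 and 49.6, within the body of the distribution or at its right edge.

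Ordered by strongest candidate in the pooled list, the genes ran myrf-1, nhr-85, nhr-23, blmp-1, grh-1, mlt-10, nhr-25 and bed-3. The median of the 8 was 48.2, against 29.9 over all genes with a candidate and 35.7 over those with windows of at least 7328 bp. As strong a candidate as that of myrf-1 was found at 1.34% of protein-coding genes, as that of nhr-85 at 3.15% and as that of nhr-23 at 3.82%. Longer windows hold more candidates, and among genes with windows of at least 7328 bp these shares were 2.37%, 6.04% and 7.51%. Myrf-1 came first in both replicates, nhr-85 3rd in both, grh-1 4th and blmp-1 5th in both, and bed-3 and mlt-10 took the last places in both. Nhr-23 was 2nd in replicate 1 and 6th in replicate 2, and nhr-25 moved the opposite way. Apart from the exchange of nhr-23 with nhr-25, and of bed-3 with mlt-10 at the bottom, the replicates gave the same order. This order is of genes, not of sites. The replicates' strongest candidates overlapped at myrf-1, nhr-85, nhr-23 and nhr-25 but were different sites at the other genes. At grh-1 they lay 1193 and 6243 bp downstream of the 5′ end in replicates 1 and 2. At blmp-1 they lay 1631 bp upstream in replicate 1 and 2397 bp downstream in replicate 2. Over 26 pooled candidates matched in both replicates, the Spearman correlation of the replicates' signals was 0.41.

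**Figure D3:**
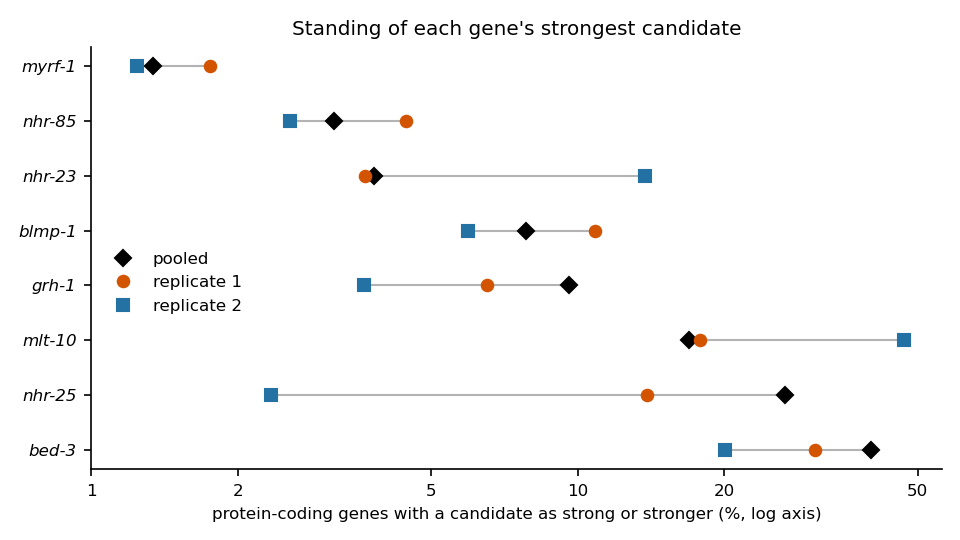
Percent of all protein-coding genes whose strongest candidate is as strong as or stronger than that of each gene (horizontal log axis; low values mean a strong candidate), in the pooled list and in each replicate's own ranked list. Myrf-1 stays between 1.24 and 1.76%, while nhr-23 (3.65% in replicate 1, 13.8% in replicate 2) and nhr-25 (13.9% and 2.34%) change places.

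Each replicate alone gave fewer peaks at these genes. Replicate 1's own thresholded list had a peak at 1 of the 8, myrf-1, and at 2.94% of all protein-coding genes. Replicate 2's had a peak at 0 of the 8 and at 2.22% of all genes, although myrf-1 and nhr-85 missed its limit narrowly with an IDR of 0.0107 and 0.0109. With the limit on the pooled ranked list loosened to an IDR of 0.05, blmp-1 and grh-1 joined to make 5 of 8, against 7.59% of all genes. These shares cover all genes, most of which have shorter windows than the members. The same holds for the shares given with the conservative list and the widened windows. Of the 93 pooled candidates, 26 (27.96%, 95% Wilson interval 19.9 to 37.8%) had a candidate summit within 100 bp in both replicates' ranked lists, and 9 of those 26 were at grh-1. The share over the windows of all protein-coding genes was 18.8%. For candidates found in at least 1 replicate the shares were close, at 67.7% (57.7 to 76.4%) for the members and 68.6% for all windows. With 200 bp in place of 100 bp the members' share rose to 44.1%. The share over all windows is given for 100 bp only, so 44.1% has no background to set it against. Intervals cover counting error over candidates only, and candidates of a gene are not independent.

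**Figure D4:**
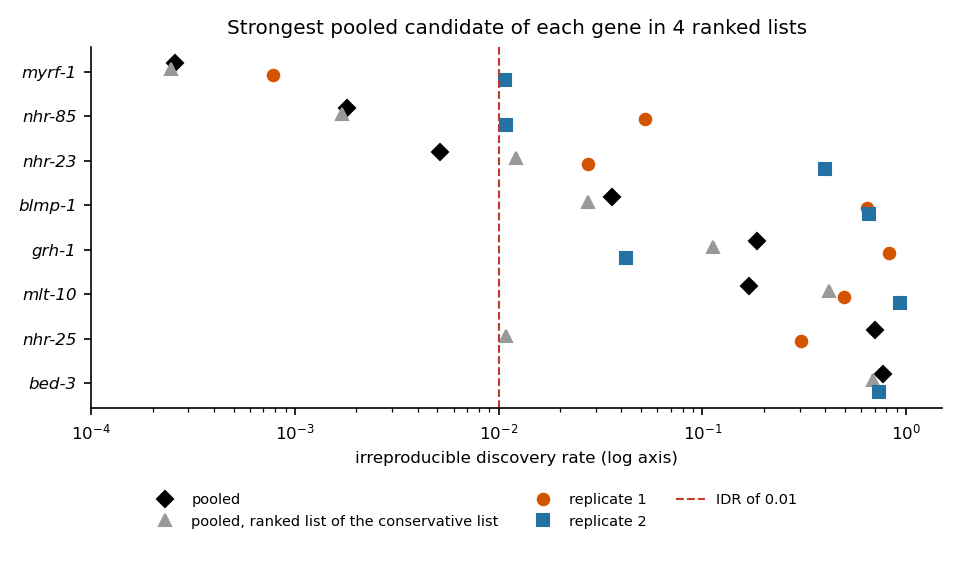
Irreproducible discovery rate (horizontal log axis) of the strongest pooled candidate of each gene in the pooled ranked list, the ranked list behind the conservative list and the replicates' own lists; the dashed line is the limit of 0.01 and points to its left pass. Myrf-1 passes in 3 of the 4 lists and nhr-85 in 2, nhr-23 passes in the pooled list alone, and nhr-25 and bed-3 lack a point where a replicate had no candidate within 100 bp.

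The peaks of the 3 genes shared none of the words searched within 50 bp of the summit, and no word was at all 3 within 100 bp. The words were ACGCAG and GAGAGA, which earlier work on these lists had found frequent at summits, AAAAAA, the nuclear receptor half-site AGGTCA, the Grainyhead core ACCGGT, and GTGAAA, which is part of the site bound by mammalian BLIMP1. Each was looked for on both strands within 50 bp of the summit, and matches of different words could overlap. The myrf-1 peak held ACGCAG, present at 16.7% of the 906 peaks and 3.07% of all candidates, and GAGAGA, present at 21.5% and 6.95%. The nhr-85 peak held AGGTCA, present at 2.98% of peaks and 2.73% of candidates, and AAAAAA, present at 24.8% and 31.4%. The nhr-23 peak, with a GC content of 54.5%, held none of the 6. Within 100 bp of the summit, a width chosen after seeing the data, GAGAGA was at 2 of the 3 peaks and at 33.8% of all 906, and AAAAAA was at 2 of the 3 and at 50.8%. At that width GAGAGA was at 4 of the 8 strongest candidates and at 13.0% of all candidates. At 50 bp it was at 2 of the 8 and at 6.95% of all candidates. Within 50 bp, GAGAGA and AAAAAA occurred in the nhr-25 promoter candidate and ACCGGT, found at 1.77% of peaks and 1.03% of candidates, in that of bed-3. GTGAAA, present at 8.61% of peaks, was at none of the 8 strongest candidates. None of the 3 peaks had a tRNA, rRNA, snRNA, snoRNA or miRNA gene within 500 bp, the nearest being 42319 bp away at myrf-1.

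Among other moulting genes few had a peak. In a list of 30 genes for moulting enzymes, matrix proteins and endocytic adaptors, 1 had a peak in the pooled list against 4.61% of all genes. The median window of the 30 was 6517.5 bp, against 4027 bp for all genes, so the 2 are not matched for length. The 1 with a peak was cpz-1, a cathepsin Z-like protease gene, with an intronic signal of 82.8. Its strongest signals were 53.04 in replicate 1 and 26.7 in replicate 2. The strongest candidates among the others were at cpl-1, a cathepsin L gene (53.2), dab-1, a Disabled adaptor gene (52.2), and phy-2, a collagen prolyl hydroxylase gene (47.7). Only that of phy-2 had an IDR below 0.05 in the pooled list among these 3, at 0.0226. In the ranked list behind the conservative list, the lowest IDR in each window was 0.0140 at phy-2, 0.0284 at dab-1 and 0.0430 at cpl-1. Of 20 other regulators of the epidermis and of larval timing, 2 had peaks, lin-42 and kin-20, with 3 each. The share was 4.61% over all genes and 9.33% over genes with windows of at least 7328 bp. Both lists were chosen with earlier results of these data known, so these shares give no chance expectation for them. The median window of these 20 genes was 8293 bp, and those of lin-42 and kin-20 were 21124 and 11163 bp. The lin-42 product, a relative of the circadian Period proteins, and the casein kinase of kin-20 are both known to act in the timing of moults. Their strongest signals were 109.8 and 101 pooled. The strongest signal in the window of lin-42 was 51.5 in replicate 1 and 60.7 in replicate 2, and in that of kin-20 it was 59.02 and 34.8. Replicate 1's own list has 1 peak at lin-42 and replicate 2's has 2. Neither replicate's own list has a peak at kin-20, where the lowest IDR was 0.011 in replicate 1 and 0.279 in replicate 2. The conservative list has 2 peaks at lin-42 and 1 at kin-20. Among the regulators without a peak, the strongest candidates were at nhr-91 (60.3, IDR 0.0117), lin-14 (57.8, IDR 0.0158) and daf-12 (53.4, IDR 0.0331). Replicate 2's own list has a peak in the window of lin-14.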

How the data were processed

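The data were 8 deposited peak lists in ce11, per the labels: a ranked and a thresholded list for each of the 2 replicates, and 2 of each for the pooled replicates. The deposited manifests state, as file headers, that each replicate list was made from its own alignments and each series-wide list from both replicates, with a further input of unstated role. Neither the aligner nor the caller is given in the sources used here. The deposited signal is the authors' own value per peak, of unstated scaling. The deposited score, at most 1000, follows from the deposited −log10 of the IDR, and the lowest score kept, 830, stands for an IDR of 0.01. Further columns of the ranked lists were not used. The main pooled list is the series-wide thresholded list not named conservative, and its candidates came from the ranked list containing every one of its peaks. Sequencing depth is unknown.

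Windows used Ensembl release 115 gene models of WBcel235, the assembly ce11 names, and sequence came from RefSeq WBcel235. All peaks fell within that assembly's chromosome lengths. Replicate candidates were matched by summits within 100 bp. Single-copy share used 36-base words. No chance test was run; counts stand beside shares over all protein-coding genes. Members, gene lists and words were chosen with earlier results of these data known. All 8 members were named, with their peaks and 3 strongest candidates, and, of the other lists, genes with a peak and the 3 strongest without one. Peaks outside the windows were named after they were seen. Gene assignment and matching were tested on simulated data. Analyses used Python 3.11.15, pandas 2.3.3 and SciPy 1.17.1.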

Additional observations from a re-analysis of the deposited data

How the results depend on the processing

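Peaks at 3 members became 5 with an IDR limit of 0.05 or with 5000 bp on either side of the gene, and 1 with peaks at or above the list's median signal or with 500 bp on either side of the 5′ end. With 1 replicate left out the count was 0 to 1 for members, 0 to 1 for other moulting genes, 1 to 2 for other epidermal regulators, and 2.22 to 2.94% for all protein-coding genes. The members' count was 2 to 4 with the conservative list, the highest score, other upstream widths or overlap in place of summits. Other moulting genes, 1 in the main count, were 2 with an IDR of 0.05, with 5000 bp upstream or with overlap, 0 with 500 bp around the 5′ end, and 3 with 5000 bp on either side. Other epidermal regulators, 2 in the main count, were 7 with an IDR of 0.05, 1 with 500 bp and 4 with 5000 bp on either side. The share of all genes, 4.61%, was 7.59% with an IDR of 0.05, 3.54% with the highest score, 2.67% at or above the median signal, 3.77% with 1000 bp and 6.86% with 5000 bp upstream, 2.09% with 500 bp, 10.6% with 5000 bp on either side and 9.33% for long windows. Members' candidates found in both replicates, 27.96%, were 44.1% within 200 bp and 48.4% by overlap, with no share over all windows for these 2 rules. The cause of these shifts beyond the changed rule was not tested. The 5000 bp window on both sides, the long windows and a 100 bp width for words were chosen after seeing the data.

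No paired analysis was possible because there is 1 group. Without read counts or a control, the lists limit what can be said: a candidate above the IDR limit is not shown to be unbound.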

Other observations

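The nearest thresholded peak of the pooled list lay 32637 bp upstream of the 5′ end of nhr-25 (signal 61.3), 197898 bp upstream of bed-3 (58.5) and 291363 bp upstream of mlt-10 (119.8). For these genes the nearest peak was thus outside the 5000 bp searched.

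Some intervals stood far apart in the series-wide ranked lists. The pooled candidate upstream of nhr-25 had an IDR of 0.705 in one and 0.0109 in the other, and the coding-exon candidate of nhr-85 had 0.028 and 0.877, the reverse order. The cause was not tested.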
